A study of Musca domestica with 10 samples.

Results

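Whole embryos of the house fly, Musca domestica, were compared at germ band extension and at cellular blastoderm, the stage before gastrulation. The comparison rested on 4 of the 10 RNA libraries of a developmental series, 2 replicates per stage, chosen by the stage given in the labels and paired by replicate number. Each library was made from 100 whole embryos frozen in liquid nitrogen. The other 6 libraries were from syncytial blastoderm, gastrula and dorsal closure embryos, 2 of each, and they entered the fit for its estimate of spread. The labels give no strain, no genotype and no age in hours, and no group was treated.

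At the cellular blastoderm, as known best from Drosophila, membranes have just enclosed the nuclei at the embryo's surface, RNA supplied by the mother is being cleared and the embryo's own genes are being switched on. During gastrulation the germ layers form. The germ band, the future trunk, then lengthens along the embryo while segments, nervous system and muscle precursors are laid down. RNA from whole embryos mixes all of these tissues, so fewer cells of a type and less RNA per cell cannot be told apart.

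The count files name genes by MDOA identifiers without gene names, and 0 of the 15803 identifiers matched the RefSeq gene table. Genes are therefore described by their level and course, with only 4 identifiers given, and the stage labels could not be checked against marker genes. Reads assigned to genes numbered 83604709 and 45759994 in cellular blastoderm replicates 1 and 2, and 74112669 and 52767660 in germ band extension replicates 1 and 2. A count of 3 reads corresponded to 0.0361 to 0.0687 CPM (read counts scaled to library size) in these 4 libraries, and levels near this rest on few reads. The 11286 genes with enough reads were tested, and none of the remaining 4517 reached 1 CPM in both libraries of either stage.

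The germ band extension replicates stood further apart than those of the earlier stage. A difference of 4-fold or more separated the germ band extension replicates for 2619 of the tested genes, and the cellular blastoderm replicates for 1579. The number was 932 at syncytial blastoderm, 1125 at gastrula and 2617 at dorsal closure. Results are therefore also given without single libraries.

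From the cellular blastoderm to the extended germ band, 1095 genes rose and 732 fell, together 16.2% of the genes tested (9.7% higher and 6.49% lower). Rises were large: their median log2 fold change was 4.90, and 968 of the 1095 were 4-fold or more. Falls were smaller, with a median log2 fold change of -2.11, and 401 of the 732 were 4-fold or more. This difference in size did not hold among genes at or above 10 CPM in both cellular blastoderm libraries. Their medians were 1.85 for rises and -2.02 for falls. The median over all tested genes was 0.04. Calls were made at an adjusted p under 0.05 in edgeR's quasi-likelihood test with the replicate number as a block.

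Without that block, 321 genes rose (2.84%) and 135 fell (1.2%), 4.04% in all, and each of them was also called in the same direction with the block. The calls also depended on single libraries. With the block, leaving out cellular blastoderm replicate 1 gave 491 rises and 350 falls, and leaving out its replicate 2 gave 325 and 138. Leaving out germ band extension replicate 2 gave 531 and 201. Without germ band extension replicate 1 there were 1314 rises and 644 falls.

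**Figure D1:**
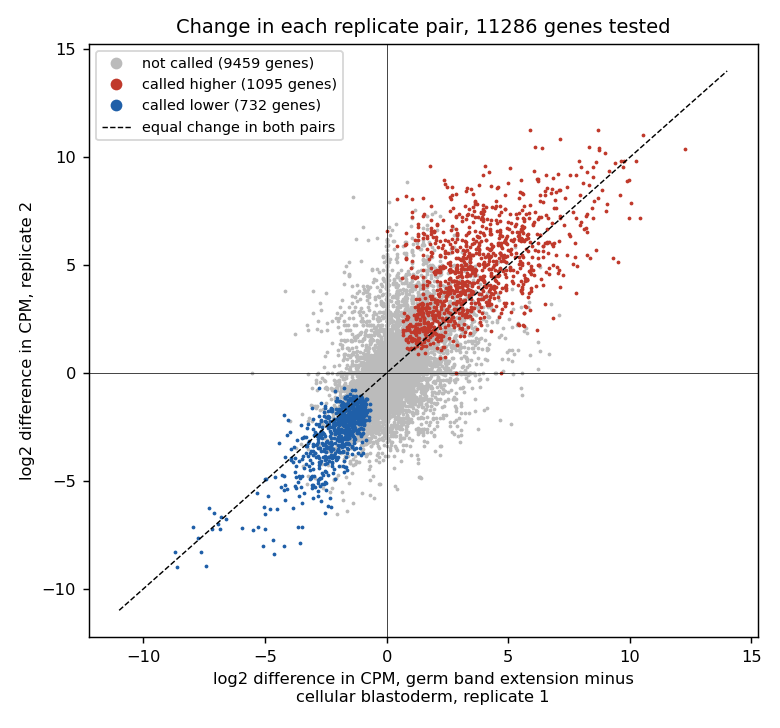
Each point is 1 of the 11286 genes tested. The axes give the log2 difference in CPM (prior count of 2), germ band extension minus cellular blastoderm, within replicate 1 (horizontal) and replicate 2 (vertical). Of the 1095 genes called higher, 1092 lie in the upper right, having risen in both pairs. All 732 called lower lie in the lower left. In replicate 2, 809 of the higher and 607 of the lower genes changed more.

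The same changes were larger in the second pair of libraries. Within replicate 1 the 1095 rising genes had a median log2 difference of 3.33, and within replicate 2 of 4.66. For the 732 falling genes the medians were -1.73 and -2.46. The change was larger in replicate 2 for 809 of the rising genes (73.9%) and 607 of the falling genes (82.9%), against 65.4% of all genes tested. Over all tested genes, 1481 rose and 422 fell by 4-fold or more in replicate 1, and 2211 rose and 1140 fell by as much in replicate 2.

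A total of 1088 genes rose by 4-fold or more in both pairs, and 314 fell by as much in both. Another 41 moved 4-fold or more in opposite directions, which leaves little room for a call, and 0 of these 41 were called. Both germ band extension libraries lay above both cellular blastoderm libraries for 1050 of the 1095 rising genes, where 9.7% of all genes were called higher. Over all 11286 genes this held for 2752, and both lay below for 2311. Of the 732 falling genes it was 705 that lay below, where 6.49% of all genes were called lower. The calls ask for a difference between these same libraries, so the counts without overlap among called genes add no support.

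The rising genes mostly had few reads before gastrulation. At cellular blastoderm 647 of the 1095 (59.1%) were below 1 CPM in both libraries, against 31.6% of all genes tested. A further 152 were at or above 10 CPM in both, and 296 lay between or differed between the libraries. Of all tested genes below 1 CPM in both cellular blastoderm libraries 18.2% rose, where 9.7% of all tested genes did. Genes this low had little room to fall, and 2 of the 3562 were called lower. They could also pass the read filter through another stage where they were higher. The larger shares thus partly follow from the filter and the low start. The median level of the 1095 rising genes was 0.204 and 0.321 CPM in the cellular blastoderm libraries, and 7.81 and 18.2 CPM at germ band extension. Both later libraries stood far above both earlier ones, and the replicates of germ band extension differed from each other more than those of cellular blastoderm. The median log2 fold change was 6.54 for rising genes that started below 1 CPM and 1.85 for those that started at or above 10 CPM. A large rise did not always end at a high level. At germ band extension 477 of the 1095 (43.6%) were at or above 10 CPM in both libraries, against 46.6% of all genes tested. Another 73 were still below 1 CPM in both.

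No read was counted in either cellular blastoderm library for 170 of the rising genes. Against a floor of 3 reads per library, their levels at germ band extension were at least 23.6-fold higher at the median, with bounds from 1.44-fold to 850-fold. With these 170 genes at their bound, the median log2 change of all 1095 rising genes was 4.42 instead of 4.90. At germ band extension their medians were 0.439 and 1.61 CPM, and the dorsal closure medians were 7.84 and 7.11 CPM. Only 3 of the 170 were at or above 10 CPM in both germ band extension libraries, and 54 were so at dorsal closure.

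**Figure D2:**
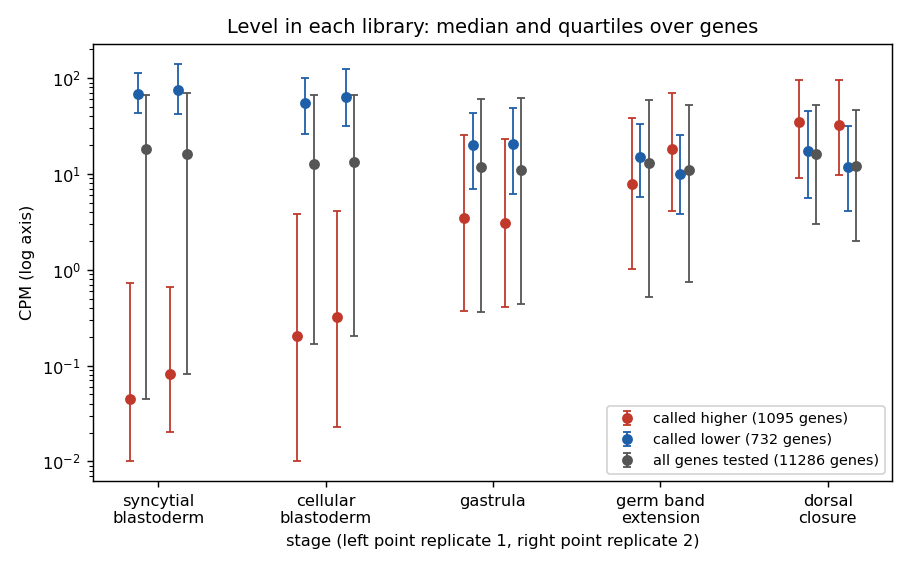
Points are the median CPM over genes in each of the 10 libraries on a log axis, and bars span the quartiles (drawn from 0.01 CPM where a quartile is lower). Genes called higher (red) went from medians of 0.204 and 0.321 CPM at cellular blastoderm to 7.81 and 18.2 CPM at germ band extension, genes called lower (blue) from 55.7 and 63.2 to 15.2 and 10.1 CPM, and all tested genes (grey) stayed between 10.9 and 18.4 CPM in every library.

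The rising genes could also be followed in libraries that did not enter the contrast. In the syncytial blastoderm, 831 of the 1095 (75.9%) were below 1 CPM in both libraries, compared with 35% of all genes tested. At dorsal closure 723 (66%) were at or above 10 CPM in both libraries, compared with 48.3% of all genes tested. The medians of the rising genes were 0.045 and 0.0811 CPM in syncytial embryos, against 34.5 and 32.7 CPM in dorsal closure embryos. Between these ends of the series, 987 of the 1095 rose (90.1%) and 12 fell, where 32% of all tested genes rose and 27.5% fell in the same edgeR fit. Both calls rest on the same estimate of spread for each gene, and most rising genes were too low at the start to fall. The shares of all tested genes are thus no baseline for them. The stage of highest mean was dorsal closure for 722 of the rising genes, germ band extension for 303 and gastrula for 52.

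Genes were also grouped by their level at the ends of the series, where 9.7% of all tested genes rose and 6.49% fell. Of 960 tested genes below 1 CPM in both syncytial blastoderm libraries and at or above 10 CPM in both dorsal closure libraries, 485 (50.5%) rose between cellular blastoderm and germ band extension and 2 fell. Of 1003 genes that stayed below 1 CPM in both libraries of either end stage, 21 rose and 18 fell. The 960 were chosen for a rise somewhere along the series, which favours rises over falls here. The 1003 had few reads at both ends. The shares of all tested genes are thus no baseline for either group.

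A smaller set of 104 rising genes was already at or above 10 CPM in all 4 blastoderm libraries. Syncytial medians of 60 and 66.6 CPM were followed by 39.1 and 40.3 CPM a stage later. In gastrula embryos they were 94.4 and 89.5 CPM, in the extended germ band 120 and 152 CPM, and in dorsal closure embryos 113 and 117 CPM. For these 104 genes the median log2 fold change was 1.67, and 5 of them were called without the replicate block. They carried 4.78% and 6.73% of all gene reads at germ band extension, more than all other rising genes together in each library. Summed, all 1095 rising genes went from 2.38% and 2.1% of the gene reads at cellular blastoderm to 8.06% and 11.2%.

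**Figure D3:**
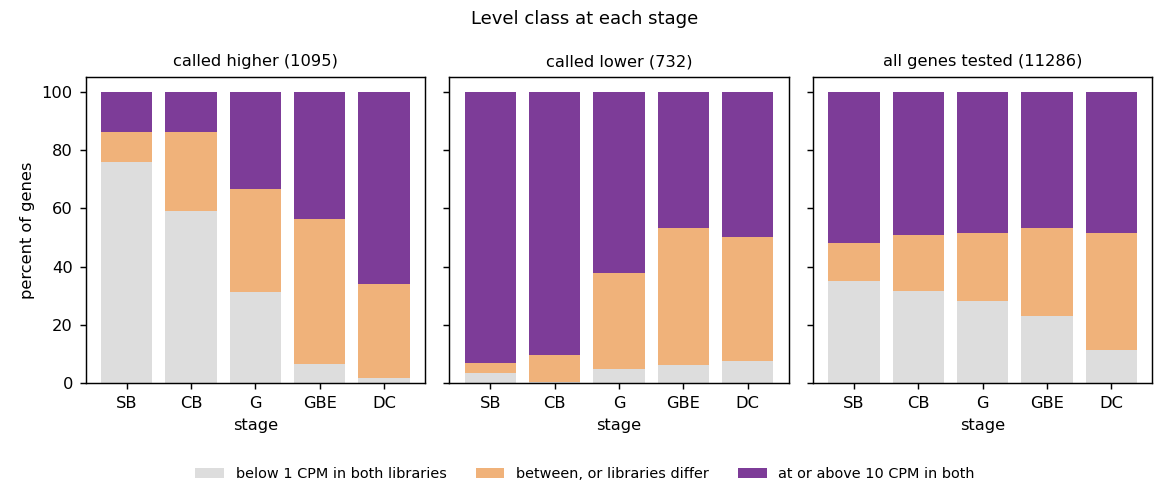
Bars give the percent of genes at each stage (SB syncytial blastoderm, CB cellular blastoderm, G gastrula, GBE germ band extension, DC dorsal closure) that were below 1 CPM in both libraries, at or above 10 CPM in both, or neither. Among genes called higher the low class shrank from 75.9% at SB to 1.92% at DC, and among genes called lower the high class went from 92.9% at SB to 46.7% at GBE.

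Genes that were switched on, from below 1 CPM in both cellular blastoderm libraries to at or above 10 CPM in both germ band extension libraries, numbered 88. The term refers to these floors only, since most of the 88 already had some reads at cellular blastoderm. Only 3 had 0 reads in both cellular blastoderm libraries, and 10 had at most 3 reads in each. All 88 were called higher, and 76 were called without the replicate block, where 9.7% and 2.84% of all genes tested were called higher. The floors ask for a large rise in these same libraries, so the calls add no support. From medians of 0.114 and 0.286 CPM before gastrulation the 88 genes reached 7.51 and 5.28 CPM in gastrula embryos, then 18.2 and 46.1 CPM in the extended germ band. At gastrula 20 of the 88 were at or above 10 CPM in both libraries, 1 was below 1 CPM in both, and 67 lay between or differed. In the syncytial blastoderm 86 were below 1 CPM in both libraries, and at dorsal closure 52 were at or above 10 CPM in both and 0 were below 1 CPM in both. The level was higher in germ band extension replicate 2 than in replicate 1 for 71 of the 88, and by 4-fold or more for 22. Leaving out germ band extension replicate 1 raised the number of genes that met both floors to 259, and leaving out replicate 2 raised it to 102.

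MDOA001738 had the largest rise under the rule for named identifiers. It stood at 0 and 0.481 CPM in the cellular blastoderm replicates (0 and 21 reads) and at 175 and 681 CPM at germ band extension. Both later libraries were far above both earlier ones, and the groups did not overlap. The fitted log2 fold change was 11.06 ± 1.47 (SE, edgeR adjusted p = 0.0022 with the block and 0.031 without), and its size depends on the prior count since the starting counts are few. It was 9.99 without cellular blastoderm replicate 1 and 17 without replicate 2, which leaves a library with 0 reads as the only start and so gives no measured size. Syncytial blastoderm levels were 0 and 0.385 CPM. Gastrula embryos had 18.3 and 9.85 CPM, and those at dorsal closure had 1140 and 1510 CPM. The level thus stood higher at each stage from cellular blastoderm on, in both replicates.

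MDOA014771 rose from 0.0481 and 0.16 CPM (4 and 7 reads) to 67.1 and 180 CPM, again with no overlap between the stages. The fit gave it a log2 change of 10.34 ± 1.18 (SE) with an adjusted p of 0.0016 in edgeR, or 0.02 with no block. That change was 9.51 and 11.42 without cellular blastoderm replicates 1 and 2, and 11.26 and 9.18 without those of germ band extension. Gastrula embryos had 6.73 and 2.07 CPM, and the highest levels, 1270 and 613 CPM, were in dorsal closure embryos. Fitted log2 changes from cellular blastoderm to gastrula were 6.70 ± 1.30 for MDOA001738 and 5.54 ± 1.05 for MDOA014771 (edgeR adjusted p = 0.02 and 0.018 with the block). From gastrula to germ band extension they were 4.36 ± 1.10 and 4.80 ± 0.91 (edgeR adjusted p = 0.32 and 0.25).

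**Figure D4:**
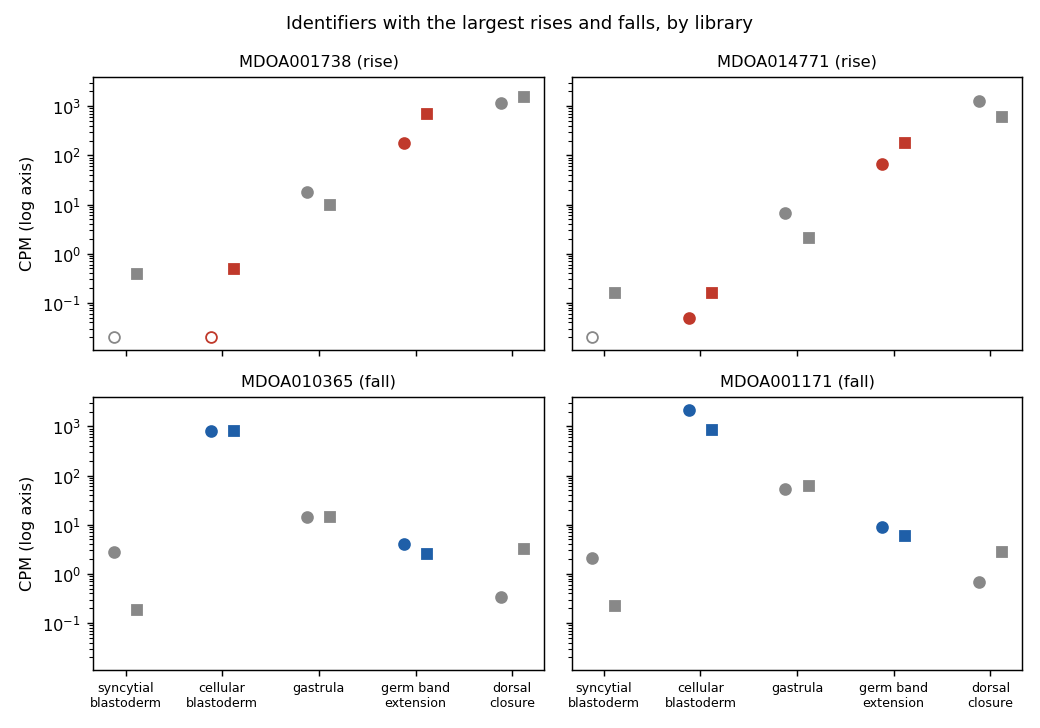
CPM (log axis) of the 4 named identifiers in each library, with circles for replicate 1 and squares for replicate 2. The cellular blastoderm and germ band extension libraries are coloured, the others are grey, and open points at the bottom mark libraries with 0 reads. MDOA001738 and MDOA014771 were highest at dorsal closure, whereas MDOA010365 and MDOA001171 were highest at cellular blastoderm in both replicates.

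The falling genes were mostly abundant from the start of the series. Of the 732, 680 (92.9%) had at least 10 CPM in each syncytial blastoderm library, compared with 52% of all genes tested, and 660 (90.2%) were so at cellular blastoderm, compared with 49%. Syncytial medians of 69.1 and 75.9 CPM and those of 55.7 and 63.2 CPM in the cellular blastoderm dropped to 20 and 20.4 CPM in gastrula embryos. In the extended germ band they were 15.2 and 10.1 CPM, and in dorsal closure embryos 17.5 and 11.9 CPM. Most of the drop thus lay between cellular blastoderm and gastrula in both replicates. Their share of all gene reads was 7.64% and 7.74% at cellular blastoderm and 2.24% and 1.43% at germ band extension.

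Few falling genes dropped to the lowest class. At germ band extension 342 of the 732 were still at or above 10 CPM in both libraries, and 45 were below 1 CPM in both. Switched off, from at or above 10 CPM in both cellular blastoderm libraries to below 1 CPM in both germ band extension libraries, were 10 genes. All 10 were called lower, 6 of them without the block, where 6.49% and 1.2% of all genes tested were called lower. The floors ask for a large fall in these same libraries, so the calls add no support. The number was 39 without germ band extension replicate 1 and 17 without cellular blastoderm replicate 1. Of the 10 genes, 8 were already below 1 CPM in both gastrula libraries, and 5 had started the series with at least 10 CPM in each library.

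In the end libraries of the series, which the contrast did not use, 516 of the 732 falling genes fell from syncytial blastoderm to dorsal closure (70.5%) and 27 rose (3.69%), where 27.5% and 32% of all tested genes did so. These calls came from the same fit and its estimate of spread, and the falling genes mostly started high. The shares of all tested genes are thus no baseline here either. The 27 genes, called lower at germ band extension but higher at dorsal closure than at syncytial blastoderm, made a dip largely by that choice. Medians were 16.4 and 18.3 CPM in the syncytial blastoderm and 24.3 and 27.7 CPM in the cellular blastoderm. They were 4 and 4.35 CPM in the extended germ band, then 183 and 87.5 CPM in dorsal closure embryos. The dorsal closure medians lay above those of all other libraries. Of the 27, 4 were called lower at germ band extension without the replicate block.

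A further 17 falling genes were below 1 CPM in both syncytial blastoderm libraries and at or above 10 CPM in both cellular blastoderm libraries. Their rise and later fall around cellular blastoderm follow from that choice. Of the 119 tested genes with that start, 34 rose further by germ band extension (28.6%) and these 17 fell (14.3%), against 9.7% and 6.49% of all genes tested. The 119 were chosen by their level in the same cellular blastoderm libraries, and many of all tested genes were too low there to fall. The shares of all tested genes are thus no baseline for them. The 17 had medians of 93.9 and 50.4 CPM in the cellular blastoderm libraries and 9.66 and 7.52 CPM in those of gastrula. In the extended germ band these were 4 and 1.2 CPM, and in dorsal closure embryos 0 and 0.0241 CPM. Both medians were lower at each later stage than at the stage before it, and 12 of the 17 were below 1 CPM in both dorsal closure libraries. Only 3 were so at gastrula and 3 at germ band extension, where 1 was still at or above 10 CPM in both libraries. Without the replicate block 6 of the 17 were called. The sets of 170, 104, 27 and 17 genes and the 41 genes that moved oppositely were chosen after their levels were seen.

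MDOA010365 had the largest fall under the rule for named identifiers. It stood at 804 and 807 CPM in the cellular blastoderm replicates and at 4 and 2.55 CPM at germ band extension, so the replicates lay close together and the stages far apart. The log2 change was fitted at -7.96 ± 1.38 (SE), for which edgeR gave an adjusted p of 0.0065 with the block and 0.031 with none. It had been at 2.75 and 0.182 CPM at syncytial blastoderm, and was at 14.6 CPM in both gastrula libraries. With the block, its adjusted p in edgeR was 0.061 without germ band extension replicate 1 and 0.11 without replicate 2.

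MDOA001171 fell from 2190 and 841 CPM to 8.84 and 5.97 CPM, a fitted log2 change of -7.61 ± 1.13 (SE) whose adjusted p in edgeR was 0.0034 with the block and 0.023 with none. Syncytial blastoderm embryos had 2.12 and 0.223 CPM, gastrula embryos 54 and 62.7 CPM, and dorsal closure embryos 0.677 and 2.8 CPM. Cellular blastoderm was its highest stage in both replicates, and no other library came near those levels. With the block, its edgeR adjusted p was 0.07 without germ band extension replicate 2, and its log2 change was -6.96 without cellular blastoderm replicate 1. From cellular blastoderm to gastrula the fitted log2 changes were -5.78 ± 1.25 for MDOA010365 and -4.57 ± 0.98 for MDOA001171 (edgeR adjusted p = 0.029 for each).

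Much of the change between the stages had been measured by gastrula, the stage in between, and more so in replicate 1. In replicate 1, the median rising gene had made 78.4% of its log2 change at gastrula (quartiles 60.5% and 89.7%), and the median falling gene 82.2%. In replicate 2 the values were 53.5% (quartiles 33.6% and 75.4%) and 62.5%. Genes with a change under 2-fold in a pair were left out of that pair's value. The gastrula level lay between those of the other stages in both replicates for 809 of the 1095 rising genes (73.9%) and 486 of the 732 falling genes (66.4%). Over all genes tested it was 27%. Called genes were chosen for a wide gap between these same libraries, which makes a value in between more likely. The 27% is therefore no baseline for them.

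The steps on either side of gastrula share libraries with the comparison of cellular blastoderm and germ band extension, so their values are set side by side only. The rising genes had a median log2 change of 3.12 from cellular blastoderm to gastrula and of 1.49 from gastrula to germ band extension. For the falling genes the medians were -1.58 and -0.63. Over all genes, edgeR with the block called 754 (6.68%) at the former step, and DESeq2 with the block called 942 higher and 722 lower. At the latter it called 0 (0%), with 1089 at an unadjusted p under 0.05, and DESeq2 with the block called 303 higher and 25 lower. Without the block edgeR called 0 genes at either step, with 1424 and 573 at an unadjusted p under 0.05.

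**Figure D5:**
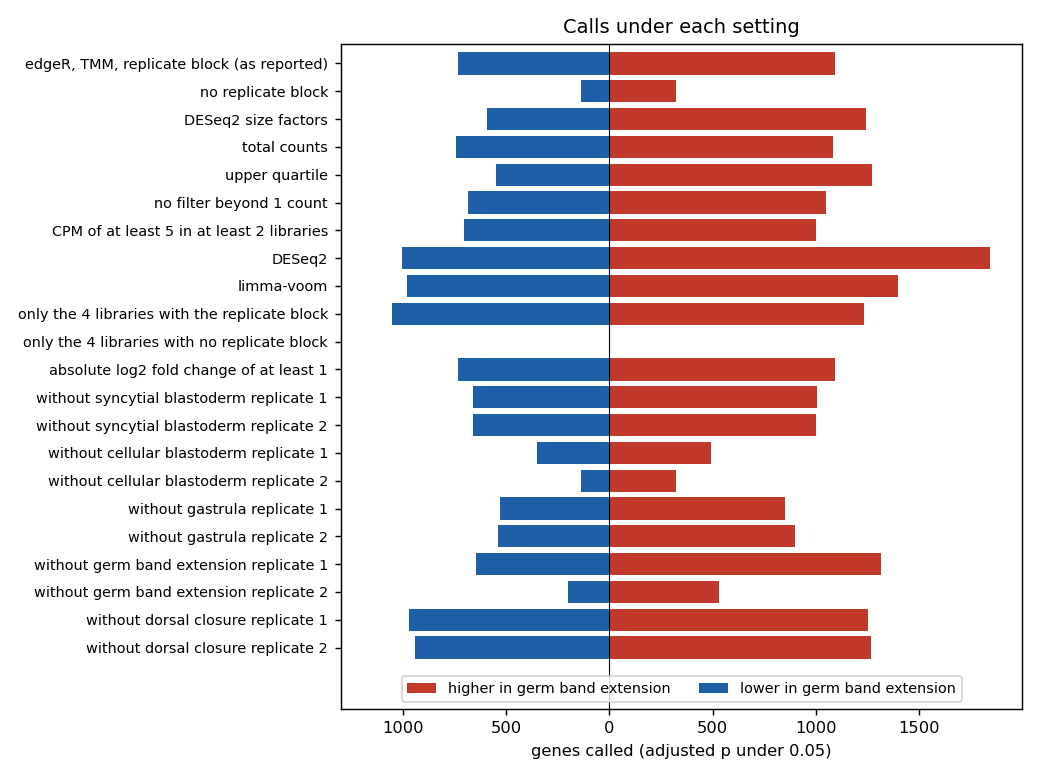
Bars give the number of genes called higher (right, red) and lower (left, blue) in germ band extension than in cellular blastoderm at an adjusted p under 0.05 under each setting. Settings other than the 2 named as having no block kept the replicate block. Counts ran from 0 in both directions with the 4 libraries alone and no block to 1844 higher and 1004 lower in DESeq2.

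Among the 100 genes with the most reads in a library, 7 in each germ band extension library were rising genes and 0 were falling genes, where 9.7% of all tested genes rose and 6.49% fell. In the cellular blastoderm libraries the 100 held 3 rising genes each, with 3 and 1 falling genes. The reads of the rising genes were held by few of them. The 10 with most reads took 40.4% and 46.8% of the reads of all 1095 at germ band extension, and the single most abundant took 0.767% and 1.44% of all gene reads. The reads of the falling genes were spread more evenly, with 20.4% and 14.2% in the top 10 at cellular blastoderm.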

How the data were processed

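Per the labels' protocols, RNA of 100 frozen embryos per library was extracted with Tri-reagent, treated with DNase and sequenced on a HiSeq2000 as paired reads. The authors deposited a raw count for each gene in each library, made with STAR and HTSeq per the submitters' processing notes. Tool versions, genome build, annotation and strand setting were not given in the sources used here, so genes that overlap, lie antisense or have near-identical copies have uncertain counts. Reads outside genes made up 10.5% to 25% of a library, those with several alignments 5.31% to 10.7% and ambiguous ones 0.353% to 0.661%. These 5 rows that name no gene were left out.

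Genes were filtered with filterByExpr and scaled by TMM in edgeR 4.0.16 (R 4.3.3). A robust quasi-likelihood model with 1 coefficient per stage and the replicate number as a block was fitted to all 10 libraries (4 residual degrees of freedom), with Benjamini-Hochberg adjustment over all genes tested. The common biological coefficient of variation was 0.461 with the block and 0.693 without. The block was used because the libraries were to be paired by number. No label says what a shared number stands for, but replicate 2 minus replicate 1 differences correlated across genes in all 10 pairs of stages (r from 0.321 to 0.608, over the level of 0.1 set for pairing). No 2 of the 4 libraries agreed within sampling noise (chi-square per degree of freedom of at least 1000). By this measure, libraries of different stages with a shared replicate number lay closer than replicates of 1 stage. The values were 1000 (replicate 1) and 1020 (replicate 2) across the stages. Between replicates they were 1400 at cellular blastoderm and 1780 at germ band extension. Pairs differing in both stage and number had 1820 and 2420. No label says whether the replicates came from separate cages or collections, so p-values measure the spread between these samples.

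Fold changes are fitted values with edgeR's prior count, standard errors are the unshrunken change over the square root of F, and log2 CPM within a pair adds a prior count of 2. Named identifiers were the 2 largest rises and 2 largest falls among the called genes that averaged 20 CPM or more at the stage with the higher level, had 10 or more reads in sum at the other stage and moved one way in both pairs (464 rises and 621 falls met this). Marker lists of Drosophila symbols could not be used. The members, the lists and the rules were chosen with earlier results of these data known. Alternatives were other scalings, filters, DESeq2 1.42.0, limma-voom (limma 3.58.1), no block, the 4 libraries alone and leaving out each library. In data simulated for this comparison on 11114 genes, edgeR with the block recovered 35 of 100 genes changed 4-fold and 95 of 100 changed 16-fold, all at a mean of 5 CPM or more, and called 8 of 10914 unchanged genes. Without the block it recovered 0 of the 200 changed genes. The simulation built in the fitted replicate shift and the spread estimated with the block, so it cannot compare the fits. Apart from the planted changes, each gene had the same mean at all stages. Under these settings most changes of 4-fold were missed with the block, and scarcer genes were not simulated.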

Additional observations from a re-analysis of the deposited data

How the results depend on the processing

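The direction of no called gene turned under any alternative run: 0 genes were called in opposite directions between the reported fit and any other. The 1095 rises and 732 falls stayed within 1.5 times under the 3 other scalings, both other filters, limma-voom, the minimum fold change and the 4 libraries alone with the replicate block. With no replicate block there were 321 and 135. DESeq2 called 1844 higher. With only the 4 libraries and no replicate block, edgeR called 0 in either direction (1615 at an unadjusted p under 0.05). Leaving out each library in turn gave 325 to 1314 rises and 138 to 970 falls.

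With no block and a library left out, both added after seeing the data, edgeR called 0 and 0 without cellular blastoderm replicate 1 (1754 at an unadjusted p under 0.05) and 0 and 0 without replicate 2 (1642). It called 580 rises and 95 falls without germ band extension replicate 1, and 90 and 1 without replicate 2. DESeq2's size factors moved the median log2 change of all genes from 0.04 to 0.24 and the upper quartile moved it to 0.28, with 1241 and 1270 rises and 591 and 548 falls, so falls of small size are measured relative to that shift.

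The 88 genes switched on became 56 with floors of 2 and 20 CPM, and 102 to 259 without single libraries. The 10 switched off became 7 with floors of 2 and 20 CPM, 8 with DESeq2's size factors, and 11 to 39 without single libraries. The causes were not tested. The 4 named identifiers kept their direction in all 24 alternatives each. MDOA001738 lost its call in 4, MDOA014771 in 3, MDOA010365 in 7 and MDOA001171 in 5 of them, with edgeR adjusted p up to 0.15.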

Other observations

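Most of the 41 genes that moved 4-fold or more in opposite directions in the replicate pairs were scarce. Of these, 24 rose in replicate 1 and fell in replicate 2, and 17 did the reverse. Medians were 0.108 and 0.16 CPM in the cellular blastoderm libraries and 0.181 and 0.0871 CPM in the extended germ band, where 3 reads corresponded to 0.0361, 0.0687, 0.0387 and 0.0653 CPM in the same order, and 29 of them were below 1 CPM in both germ band extension libraries.

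Among the 1095 rising genes, 39 were at or above 10 CPM in germ band extension replicate 2 while below 1 CPM in replicate 1, and 0 showed the reverse. A level 4-fold or more higher in replicate 2 was seen for 376 of them, and 4-fold or more higher in replicate 1 for 39. Among the 732 falling genes, 71 were 4-fold or more lower in replicate 2 and 18 in replicate 1.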
